A study of Mus musculus with 6 samples.

Results

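The erythroid genes of the fetal liver were followed as 32 named genes of the red cell lineage, from transcription factors of its progenitors to proteins of the finished red cell membrane. Members were all probe sets whose only gene symbol in the platform annotation is 1 of these names, which gave 49 of the 45101 probe sets on the arrays, for 30 of the 32 genes. Ahsp and Trim58 were not analysed here. Of the 49 probe sets, 46 were tested and 3 are control probe sets for Tfrc, which are described without a test. All 46 entered the test, since no filter on low values was used.

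Livers of 3 null embryos, with the genotype Hnf4 LoxP/LoxP and AlfpCre (arrays Null_61, Null_1191 and Null_1195), were set against livers of 3 control embryos, with Hnf4 LoxP/+ and AlfpCre (Control_8, Control_1192 and Control_1193). All 6 were whole mouse livers taken at E18.5, and total RNA from each was hybridised to 1 array. Both groups carry the Cre transgene and at least 1 flanked allele. AlfpCre places Cre under elements of the albumin and alpha-fetoprotein genes, so deletion of Hnf4a, which encodes the hepatocyte nuclear receptor HNF4 alpha, is directed to hepatocytes and their precursors. The erythroid cells in the same livers are not its target. Nothing in the labels says whether the embryos were littermates, so p values cover only the scatter among these 6 arrays, which may be in part technical.

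Late in gestation the mouse liver is still a blood-forming organ, and erythroblasts make up a large part of its cells. GATA1, TAL1, LMO2 and KLF1 switch on the genes of globin, heme and the membrane skeleton, and erythropoietin, acting through its receptor, keeps the precursors alive. Red cells made first, in the yolk sac, use the embryonic globins zeta (Hba-x), epsilon-y (Hbb-y) and beta-h1 (Hbb-bh1), and those made later in the liver use mainly adult globins. In whole tissue, fewer erythroid cells and less RNA per cell cannot be told apart.

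Hnf4a itself read 793, 527 and 834 in the null livers against 1201, 1127 and 1135 in the control livers in probe set 1421983_s_at (limma adjusted p = 0.0434), and its brightest probe set did not pass the test (adjusted p = 0.194). Array medians lay between 91.8 and 99.6. The hepatocyte marker genes Hrg, F10 and Apob, which encode plasma proteins, fell to -37.8 ± 17.2, 65.2 ± 6.28 and 7.17 ± 3.96 in null livers, against 2724 ± 346, 2903 ± 149.9 and 3143 ± 1236 in control livers (SD, n = 3 each). They had the smallest adjusted p of 11 hepatocyte genes, of which 9 fell. Alb and Afp of that list were not called (log2 changes 0.02 and -0.06). Intensities are the authors' deposited linear values, some of which are below 0, log2 changes are null minus control after a pseudocount of 32, and a call is a limma p adjusted by Benjamini-Hochberg over all 45037 tested probe sets that lies under 0.05. Control_8 and Null_61 carry title numbers from a different run than the other 4 arrays, and their 18S ribosomal RNA probe set for the 5' part read 33.5 in Null_61 and 42.1 in Control_8, against 449 to 616 in the others. Whether these numbers stand for a batch is not stated in the labels. Xist and Y-linked probe sets read Null_1191, Null_1195 and Control_8 as female. Among the other 4 arrays the nulls are thus female and the controls male, so group and embryo sex cannot be told apart there.

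Few erythroid genes differed past the threshold between null and control livers, and none of them was lower in the null livers when all 6 arrays had equal weight. Of the 46 erythroid probe sets 2 rose and 0 fell, where 1.46% of all tested probe sets rose and 5.55% fell. Both that rose are probe sets of the embryonic globin gene Hbb-y. At the level of genes, each read from its brightest probe set, 0 of 30 rose and 0 of 30 fell with limma (8 had an unadjusted p under 0.05, against 24.3% of all genes), against 1.56% and 7.85% of 18193 genes. The 95% interval of the log2 change lay within -1 and 1 for 28 of the 30 genes, as it did for 88.7% of all genes, and for 41 of the 46 probe sets, against 89.5% of all. The gene exceptions were Epor and Hba-x, and the other probe sets beyond those bounds were 1436717_x_at and 1436823_x_at of Hbb-y (1.51 to 3.12 and 1.498 to 3.10) and 1431743_a_at of Slc4a1 (-1.03 to 0.10). In the brightest probe set of each of the 28 genes a 2-fold difference in either direction lay outside the interval. The median log2 change of the 30 genes was 0.18, with 22 above 0, and the median of all genes was 0.01.

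In 8 of the 30 genes (Gata1, Tal1, Nfe2, Slc4a1, Rhag, Hbb-y, Hba-x and Tfrc) all 3 null livers lay above all 3 control livers, and in 0 of 30 all nulls lay below, where the shares over all genes were 13.2% and 17.9%. Over probe sets the counts were 11 and 0 of 46, against 13.6% and 13.8%, and 11 of 46 had an unadjusted p under 0.05, against 21.2%. With the number run as a block 6 erythroid probe sets rose and 0 fell (over all, 4.14% and 8.19%), among them the brightest of 4 genes (over all genes, 4.11% rose and 11.1% fell). With array weights 5 rose and 1 fell (over all, 3.46% and 7.74%), in the 4 arrays of the second number run alone 3 rose and 2 fell (2.54% and 6.4%), and with quantile normalization 11 rose and 0 fell (2.61% and 4.75%). Quantile normalization also moved the calls over all probe sets to 1176 higher and 2139 lower, where without it 658 were higher and 2501 lower. Without Null_61, 5 rose and 3 fell (3.33% and 7.1%). Per-array values of the brightest probe sets are plotted by role.

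**Figure D1:**
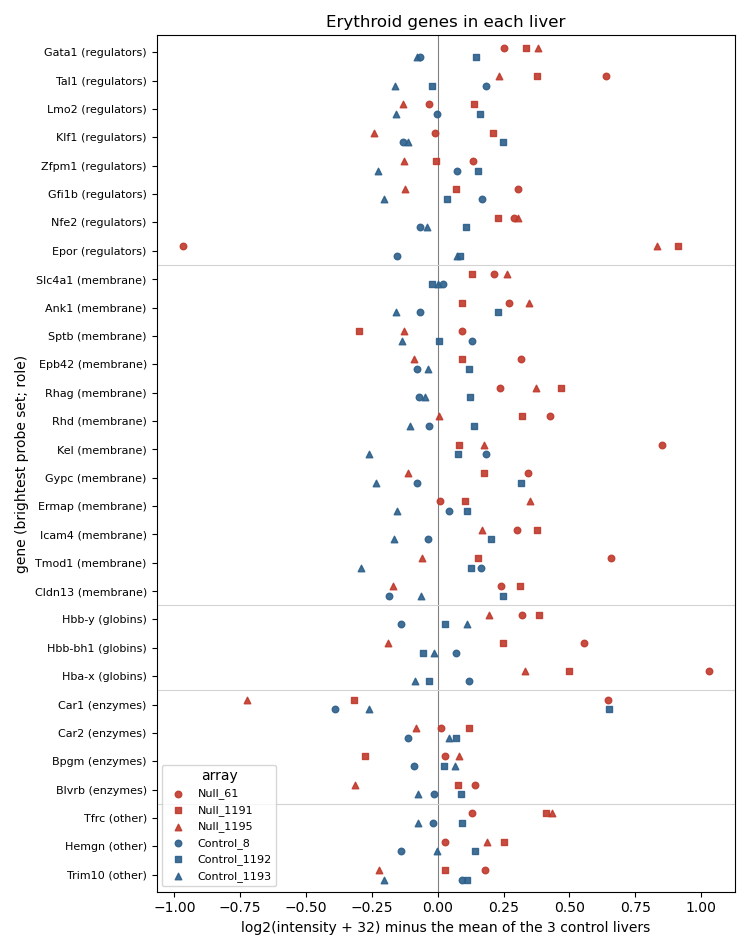
Each row is a gene read from its brightest probe set, and each point is 1 liver, plotted as its log2(intensity + 32) minus the mean of the 3 control livers, with null livers in red above control livers in blue. The rows for Gata1, Tal1, Nfe2, Slc4a1, Rhag, Hbb-y, Hba-x and Tfrc show no overlap of the groups, and Epor in Null_61 lies far to the left of its other values.

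**Figure D2:**
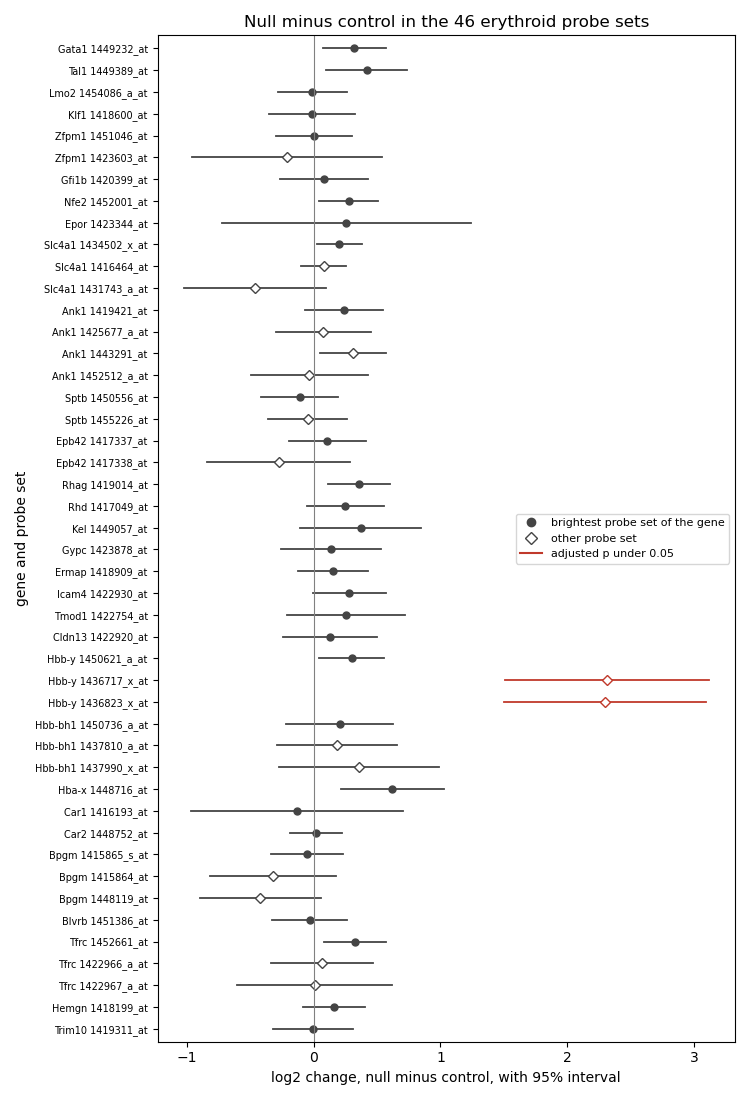
Points are log2 changes (null minus control) of the 46 tested erythroid probe sets with their 95% intervals from limma, filled for the brightest probe set of a gene and open for the others. Only 1436717_x_at and 1436823_x_at of Hbb-y, in red, have an adjusted p under 0.05.

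Among the regulators, 0 of 8 genes were called and the median log2 change was 0.17. Gata1, the zinc finger factor that red cell precursors cannot mature without, read 1126, 1194.7 and 1235 in null livers and 898, 1045 and 889 in control livers (log2 change 0.32, 95% interval 0.07 to 0.57, adjusted p = 0.133). All 3 nulls lay above the controls, but the difference did not pass the test. Tal1, the helix-loop-helix partner of GATA1, read 1236, 1027 and 926 in null livers and 892, 771 and 696 in control livers (log2 change 0.42, interval 0.09 to 0.74, adjusted p = 0.133). Again the groups did not overlap, and a call was made only where the number run entered as a block (adjusted p = 0.0255) or with quantile normalization (0.0358). Nfe2, which encodes a leucine zipper factor that binds the globin control regions, read 1295, 1242 and 1309 in null livers and 1005, 1138 and 1024 in control livers (log2 change 0.27, adjusted p = 0.162), without overlap.

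Klf1, the activator of adult beta-globin, read 1973, 2302 and 1675 in null livers and 1810.2, 2365 and 1834 in control livers, a log2 change of -0.02 with an interval from -0.36 to 0.33. Lmo2, the bridging protein of the GATA1 and TAL1 complex, read 1572, 1775 and 1469 in null livers and 1608, 1806 and 1442 in control livers (log2 change -0.01, interval -0.29 to 0.27). These ranges overlapped almost fully. Gfi1b, a repressor needed by red cells and platelets, had a log2 change of 0.08 with an interval from -0.26 to 0.43. Zfpm1, which encodes the GATA1 cofactor FOG1, read 1224 ± 113 in null and 1229 ± 169.9 in control livers in its brighter probe set (interval -0.30 to 0.30). Its dimmer one, 1423603_at, read 343, 175 and 104 in null livers and 283, 219.9 and 174 in control livers (interval -0.96 to 0.54), with the nulls spread on both sides of the controls.

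Epor, the receptor of erythropoietin, had the widest interval of the regulators' probe sets. It read 356, 1393 and 1318 in Null_61, Null_1191 and Null_1195, and 649, 771 and 765 in Control_8, Control_1192 and Control_1193. Null_61 lay below all controls and the other 2 nulls lay above all of them. The log2 change was 0.26 with a wide interval, -0.72 to 1.24 (adjusted p = 0.778). Without Null_61 the log2 change was 0.87 (adjusted p = 0.00225), and within the 4 arrays of the second number run it was 0.79 (adjusted p = 0.0036). Those 4 arrays hold female nulls and male controls, so group and embryo sex cannot be told apart in them. Null_61 minus Control_8, the pair of the first run, was -0.81, a single pair that allows no test.

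The late genes of the red cell membrane had a median log2 change of 0.22 over 12 genes, 0 of them called and 11 above 0. Rhag, the ammonia-channel protein of the Rh complex, read 1886, 2215 and 2073 in null livers and 1514, 1737 and 1540.2 in control livers (log2 change 0.36, interval 0.11 to 0.60, adjusted p = 0.091). The groups did not overlap, and a call was made with number run blocked (adjusted p = 0.0366), array weights (0.0325), quantile normalization (0.00759) and without Null_61 (0.0387). Its partner Rhd, the mouse Rh antigen gene, read 2288, 2121 and 1698 in null livers and 1652, 1868 and 1572 in control livers (log2 change 0.25, interval -0.05 to 0.55). Here Null_1195 lay inside the control range. Kel, the metalloprotease of the Kell blood group, read 1729, 999.9 and 1071 in null livers and 1077, 998 and 782 in control livers (log2 change 0.37, interval -0.11 to 0.85), with Null_61 far above the other 5. Icam4, an adhesion molecule between erythroblasts and macrophages, read 1015, 1072 and 922 in null livers and 797, 946 and 725 in control livers (log2 change 0.28, interval -0.01 to 0.57, adjusted p = 0.25). Only Control_1192 reached into the null range. Gata1, Nfe2, Icam4, Slc4a1 1434502_x_at and Hbb-y 1450621_a_at were called only with quantile normalization, at log2 changes of 0.55, 0.51, 0.50, 0.38 and 0.525 (adjusted p = 0.0123, 0.013, 0.0466, 0.0157 and 0.0323).

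Proteins that carry or anchor the membrane skeleton gave 0 calls when all 6 arrays had equal weight and values were not quantile-normalized. Slc4a1, the anion exchanger band 3, read 6982, 6597 and 7240.5 in null livers and 6103, 5939.6 and 6029 in control livers in its brightest probe set (log2 change 0.20, interval 0.03 to 0.38), without overlap. Its probe set 1416464_at had a log2 change of 0.08 and 1431743_a_at had -0.46, so the probe sets did not share a direction. In 1431743_a_at the values were 1250.1, 842 and 544 in null livers and 1182, 1209.7 and 1089 in control livers, with Null_61 highest and the other 2 nulls below every control. Ank1, the ankyrin that ties band 3 to spectrin, had log2 changes from -0.03 to 0.31 in 4 probe sets, and its brightest read 1024, 901 and 1081 in null livers and 802, 993 and 751 in control livers (interval -0.07 to 0.54). The dim set 1443291_at, with values near the array medians, had all nulls above all controls. Sptb, the red cell beta spectrin, read 1196, 904 and 1023 in null livers and 1230.4, 1125 and 1016 in control livers (log2 change -0.11, interval -0.41 to 0.19), and was the 1 membrane gene with a value under 0. Its second probe set had a log2 change of -0.05. Epb42, the band 3 anchor protein 4.2, had log2 changes of 0.11 and -0.28 in its brighter and dimmer probe sets, with intervals of -0.20 to 0.41 and -0.84 to 0.29.

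The other surface and skeleton genes gave overlapping groups. Gypc, glycophorin C, read 688 ± 112 in null and 626 ± 133 in control livers (log2 change 0.14, interval -0.26 to 0.53). Ermap, a butyrophilin-like protein of the Scianna blood group, read 2590.1 ± 327 in null and 2321 ± 219 in control livers (interval -0.12 to 0.43). Cldn13, a claudin that rodents express in blood-forming tissue, read 1327 ± 233 in null and 1209 ± 198 in control livers (interval -0.24 to 0.50). Tmod1, which caps the actin filaments of the skeleton, read 334, 226 and 191 in null livers and 228, 221 and 158 in control livers (interval -0.21 to 0.72), with Null_61 highest. None of these 4 was called under any of the alternatives run.

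The embryonic globins held the 2 calls. Their promoters are shown for Hbb-y, of the beta-like cluster, and Hba-x, of the alpha-like cluster, because their probe sets had the highest log2 changes among the members. Each window runs from 250 bases before the annotated start to 50 bases after it, in RefSeq on GRCm38.p6, and capitals mark matches on either strand to a GATA motif (the letters GATA with A or T before them and A or G after them), to CACCC or to CCAAT. The Hbb-y window is chr7:103853158-103853457 on the minus strand and the Hba-x window is chr11:32276350-32276649 on the plus strand.
Hbb-y: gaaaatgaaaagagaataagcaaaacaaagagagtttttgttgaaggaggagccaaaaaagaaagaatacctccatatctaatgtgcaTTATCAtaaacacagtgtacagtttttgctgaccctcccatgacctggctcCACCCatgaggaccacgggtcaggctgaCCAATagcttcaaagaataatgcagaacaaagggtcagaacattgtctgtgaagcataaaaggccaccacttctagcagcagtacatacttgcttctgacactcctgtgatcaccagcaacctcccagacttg
Hba-x: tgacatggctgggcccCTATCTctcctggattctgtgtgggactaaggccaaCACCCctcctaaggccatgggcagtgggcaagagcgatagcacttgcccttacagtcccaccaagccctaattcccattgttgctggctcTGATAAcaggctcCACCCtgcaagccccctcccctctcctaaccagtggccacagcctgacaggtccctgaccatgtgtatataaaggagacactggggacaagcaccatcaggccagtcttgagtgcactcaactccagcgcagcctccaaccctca
Both windows hold a GATA match, at -162 in Hbb-y and at -234 and -108 in Hba-x, and a CACCC match, at -111 in Hbb-y and at -198 and -95 in Hba-x, counted from the start to the first base of the match. CCAAT was found at -83 in Hbb-y only. RefSeq windows were at hand for 21 of the 30 measured genes, 24 windows in all. A GATA match was in 16 of the 24 (66.7%), against 29.8% of all 32851 windows, and CACCC was in 20 (83.3%), against 57.5%. CCAAT was in 9 (37.5%), against 37.4%. These matches describe the letters only, and no binding was measured.

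Hbb-y, the epsilon-y globin, read 785, 412 and 301 in null livers and 120.0, 41.9 and 55.3 in control livers in probe set 1436717_x_at, a rise of 2.31 on the log2 scale (standard error 0.35, adjusted p = 0.0044). All nulls lay well above all controls, and within each group the array of the first number run was highest. Probe set 1436823_x_at read 797, 419 and 283 in null livers and 114, 46.6 and 54.3 in control livers (log2 change 2.30, standard error 0.35, adjusted p = 0.00452). Both calls held in each of the 16 alternatives that tested these probe sets, with adjusted p values up to 0.0298 and 0.0323. Since the control means lie below the array medians, no fold is given, and the size of the log2 change moved with the pseudocount, to 2.80 and 2.77 at a pseudocount of 1 and 1.74 and 1.73 at 100. Null minus control in 1436717_x_at was 2.43 in the first number run, 1 pair, and 2.26 in the second. The brightest Hbb-y probe set, 1450621_a_at, read 1234, 1290.4 and 1129.6 in null livers and 888, 1002 and 1064 in control livers, a much smaller log2 change of 0.30 (interval 0.04 to 0.56, adjusted p = 0.171). The groups again did not overlap. The suffix _x_at marks probe sets with probes that can match other transcripts, and beta-like globin genes are close copies, so the transcript behind the 2 calls is uncertain. With a gene's probe sets averaged, Hbb-y rose by 1.64 (adjusted p = 0.00264), but that average includes these 2 probe sets and is not separate from them. Without probe sets of that suffix 0 member probe sets rose and 0 fell (over all, 1.39% and 5.51%).

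Hba-x, the zeta globin, read 953, 649 and 576 in null livers and 492, 440.2 and 422 in control livers, without overlap (log2 change 0.62, interval 0.21 to 1.03, adjusted p = 0.0824). A call was made with number run blocked (adjusted p = 0.00889), array weights (0.0355) and quantile normalization (0.0326). Null minus control was 0.91 in the first number run, 1 pair, and 0.47 in the second. Hbb-bh1, the beta-h1 globin, read 116, 87.3 and 56.2 in null livers and 73.5, 64.8 and 67.6 in control livers in its brightest probe set, near or below the array medians (log2 change 0.20, interval -0.22 to 0.62). Its groups overlapped in all 3 probe sets, with log2 changes of 0.18 to 0.36.

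**Figure D3:**
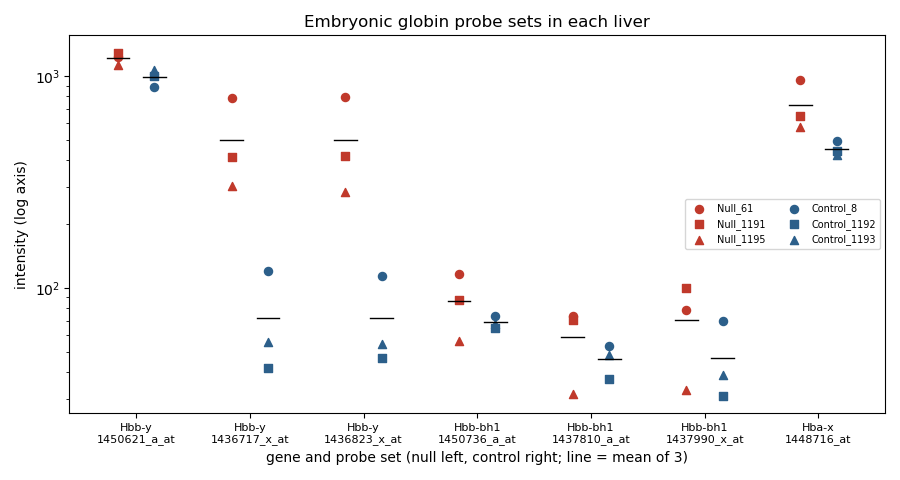
Deposited intensity on a log axis for the 7 probe sets of the 3 embryonic globin genes, with null livers in red on the left and control livers in blue on the right of each pair, and a line at the mean of 3. In 1436717_x_at and 1436823_x_at the nulls sit between 283 and 797, above the controls at 41.9 to 120, and in 1450621_a_at they sit between 1130 and 1290.

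The erythroid enzymes had a median log2 change of -0.04 over 4 genes and 0 calls, a value that turned to 0.16 with quantile normalization. Car2, the main carbonic anhydrase of red cells, read 7146, 7692 and 6692 in null livers and 6554, 7433 and 7301 in control livers (interval -0.19 to 0.22). Blvrb, a flavin and biliverdin reductase, read 3376, 3229 and 2459 in null livers and 3035, 3257 and 2904 in control livers (interval -0.33 to 0.26). Both genes are also expressed outside red cells. Car1, a second carbonic anhydrase, read 1138, 568 and 420.4 in null livers and 539, 1142 and 591 in control livers (interval -0.97 to 0.71), with 1 high array in each group.

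Bpgm, the enzyme that makes 2,3-bisphosphoglycerate to tune oxygen release, depended on the probe set. Its brightest, 1415865_s_at, read 1049.8, 844 and 1091 in null livers and 965, 1046 and 1079.5 in control livers (log2 change -0.06, interval -0.34 to 0.23). Probe set 1448119_at read 1076, 631 and 568 in null livers and 977, 999 and 984 in control livers (log2 change -0.42, adjusted p = 0.296), with Null_61 above the controls and the other 2 nulls far below. It fell without Null_61 (-0.69, adjusted p = 0.00442), in the 4 arrays of the second number run (-0.70, 0.00915) and, with all 6 arrays, under array weights (-0.57, 0.0406). Probe set 1415864_at had the same pattern, with 1018, 547 and 553 in null livers and 923, 799.7 and 842 in control livers. It fell without Null_61 (-0.61, adjusted p = 0.011) and in the 4 arrays of the second number run (-0.55, 0.0244). In those 4 arrays group and embryo sex cannot be told apart. The third probe set that fell without Null_61 was 1431743_a_at of Slc4a1, at -0.75 (adjusted p = 0.0283).

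Tfrc, the transferrin receptor through which precursors take up iron, read 4897, 5970.4 and 6062 in null livers and 4419.7, 4778 and 4252 in control livers in its brightest probe set, without overlap (log2 change 0.32, interval 0.08 to 0.57, adjusted p = 0.119). With number run blocked it was called (adjusted p = 0.0479), as with array weights (0.0269), quantile normalization (0.015) and without Null_61 (0.0181). Its other tested probe sets had log2 changes of 0.07 and 0.01 with overlapping groups. The control probe sets of the Tfrc transcript read 532, 409 and 259 at the 5' end in null livers and 355, 437 and 313 in control livers. In the middle they read 389, 317 and 246 in null livers and 280, 358 and 211 in control livers. At the 3' end they read 1437, 1167 and 804 in null livers and 1009, 1168 and 790.4 in control livers. The ratio of 3' to 5' signal was 2.7 to 3.1 in null and 2.53 to 2.84 in control livers for Tfrc. The groups also overlapped for the controls Actb (1.58 to 1.76 in null and 1.38 to 1.73 in control livers) and Gapdh (0.948 to 1.28 in null and 0.934 to 1.04 in control livers). They did not for Pcx, the pyruvate carboxylase gene, at 1.55 to 1.65 in null and 2.83 to 3.66 in control livers. The part of RNA length in the erythroid values was not tested. Hemgn, a nuclear protein of blood precursors, read 3197, 3741 and 3575 in null livers and 2845, 3460.5 and 3127 in control livers (interval -0.09 to 0.40), and Trim10, a RING-finger gene of terminal erythroid maturation, read 1456 ± 207 in null and 1461 ± 176 in control livers (interval -0.32 to 0.31).

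**Figure D4:**
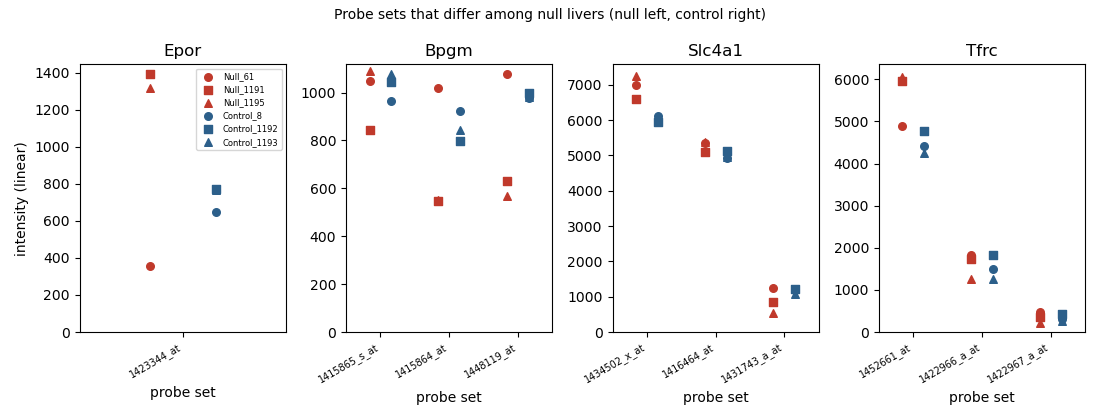
Deposited intensity on a linear axis starting at 0 for the probe sets of Epor, Bpgm, Slc4a1 and Tfrc, with null livers in red left of control livers in blue. Null_61 (red circle) parts from the other 2 nulls in Epor, in 1415864_at and 1448119_at of Bpgm and in 1431743_a_at of Slc4a1.

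Early regulators and late genes were set side by side for each array. The regulators' median deviation from the control mean was 0.19, 0.22 and 0.05 in Null_61, Null_1191 and Null_1195, and -0.03, 0.13 and -0.14 in Control_8, Control_1192 and Control_1193. For the 15 measured membrane and globin genes it was 0.32, 0.18 and 0.17 in the null livers and -0.03, 0.12 and -0.10 in the control livers. The median of these 15 genes in all 3 nulls thus lay above that in all controls, while the regulators' median in Null_1195 fell inside the control range. The 12 membrane genes alone had medians of 0.29, 0.14 and 0.085 in null livers and -0.035, 0.12 and -0.145 in control livers. There, too, Null_1195 fell inside the control range. The 3 embryonic globin genes had 0.55, 0.38 and 0.20 in null livers and 0.07, -0.03 and -0.01 in control livers, without overlap. Gene by gene, all 3 nulls lay above all 3 controls in 4 of the 15 late genes and 3 of the 8 regulators, against 13.2% of all genes. The difference between early and late genes was not tested, since the members were chosen with earlier results known. Over the 30 genes Null_61 was the highest of the 6 arrays in 11 and Control_1193 the lowest in 14, where the shares over all genes were 19.3% and 12.8%.

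Other genes of the red cell program gave 0 calls in either direction in 4 further lists, with limma. Of 14 genes of heme synthesis and adult globins the median log2 change was 0.10, and 0 had an unadjusted p under 0.05. Hbb-b2, an adult beta globin, read 6916 ± 79.4 in null and 6664 ± 209.6 in control livers. Slc25a37, the mitochondrial iron importer mitoferrin, read 5013 ± 766 in null and 4635 ± 247 in control livers. Of 11 other red cell membrane genes the median was 0.05 and 2 had an unadjusted p under 0.05. These were Slc2a1 (log2 change 0.44, adjusted p = 0.0589) and Aqp1 (-0.41, 0.147), in opposite directions. The 2 brightest genes of the list were not among them. Tmcc2 read 4291 ± 341 in null and 3890.3 ± 301 in control livers. Mpp1, a palmitoylated scaffold gene, read 1741 ± 234 in null and 1812 ± 144 in control livers. Of 18 genes of progenitors and erythropoietin signalling the median was 0.04 and 2 had an unadjusted p under 0.05, Sox6 and Pim1 (log2 change of Pim1 0.29, adjusted p = 0.200). Bcl2l1, the survival gene downstream of erythropoietin, had a log2 change of 0.21 (adjusted p = 0.623) and Runx1, a factor of blood stem cells, 0.30 (0.271). Sox6, known in mice as a repressor of Hbb-y in definitive red cells and named here after its values were seen, read 1318, 929 and 892 in null livers and 623, 695 and 701 in control livers, without overlap (log2 change 0.59, adjusted p = 0.0596). Of 13 late maturation genes the median was 0.25 and 4 had an unadjusted p under 0.05. These were Rundc3a (log2 change 0.47, adjusted p = 0.0543), Xpo7, a nuclear exporter of terminal erythroblasts (0.45, 0.177), Ube2o (0.45, 0.1975) and Ulk1 (-0.27, 0.196). The cell cycle factor E2f2 was not among them, at 0.26 (0.761).

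Marker genes of other cells of the liver were counted beside the erythroid genes. Of 10 megakaryocyte and platelet genes, which share the factors GATA1, NFE2 and FOG1 with red cells, 6 fell and 0 rose, with a median of -0.65. Vwf, Pf4 and Gp1bb read 147 ± 13.2, 2002 ± 130.0 and 155 ± 30.3 in null livers, and 328 ± 61.1, 2948 ± 309 and 306 ± 62.6 in control livers. The list's summed intensity was 4517 to 5590.5 in null and 6903 to 9707 in control livers, without overlap. Of 13 macrophage genes 4 rose and 0 fell, among them Timd4, Clec4f and Vcam1 (log2 changes 0.59, 0.55 and 0.51), with a median of 0.53. Their summed intensity was 8296 to 12770 in null and 5970.4 to 6719 in control livers, and it was highest in Null_61. VCAM1 is an adhesion molecule of the macrophages on which erythroblasts mature. Of 9 proliferation genes 2 rose, Birc5 and Rrm2, by 0.73 and 0.59 on the log2 scale. Their summed intensity was 21345 to 23945 in null and 17233 to 20176 in control livers. The part of these cells and of proliferation in the erythroid values was not tested. Of 12 neutrophil genes 1 fell (Mmp8, -0.97), of 9 endothelial genes 3 fell (Stab2, Kdr and Tek) with a summed intensity of 1666 to 2022 in null and 2281 to 2498 in control livers, and of 7 mast cell and 9 lymphocyte genes 0 were called, with 0 and 1 at an unadjusted p under 0.05. Mcpt4 and Hdc of the mast cell list had log2 changes of 0.10 and 0.06, and Ptprc and Rag1 of the lymphocyte list 0.17 and -0.06. Of 11 hepatocyte genes 9 fell, and their summed intensity was 50315 to 54862 in null and 82676 to 86035 in control livers. Values are intensities, so the sums describe the same probe sets in different livers and not shares of cells.

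**Figure D5:**
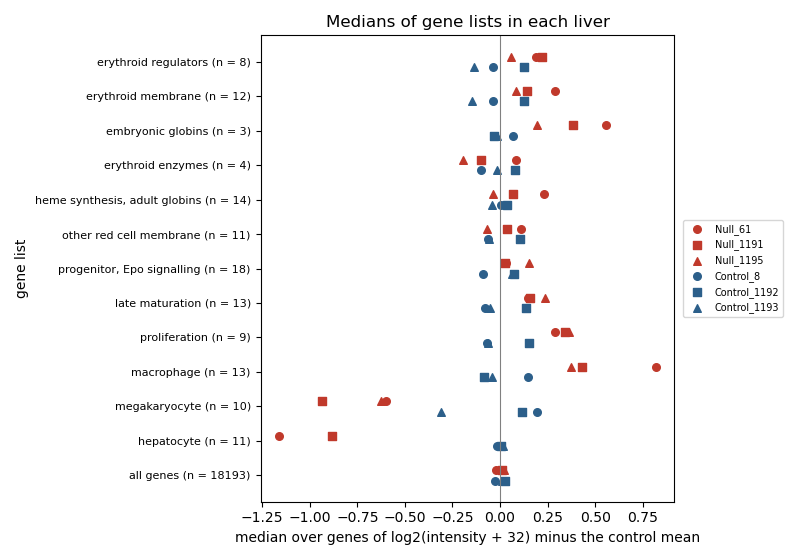
Each point is the median, over the genes of a list, of log2(intensity + 32) minus the control mean in 1 liver, with null livers in red above control livers in blue and the number of measured genes beside each name. The erythroid lists lie between -0.20 and 0.55, with the highest value for the embryonic globins in Null_61, while the hepatocyte list reaches -1.16 in Null_61.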

How the data were processed

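Biotin-labelled total RNA of 6 fetal livers was hybridised to Affymetrix mouse expression arrays, per the labels' protocols. The authors deposited 1 linear intensity per probe set, with 0.909% to 1.34% of each array below 0. How the authors summarised, background-corrected and scaled the probes was not stated in any source used here. From the deposited intensities log2(value + 32) was computed, with negative values as 0, and since array medians then differed by at most 0.0877 no further scaling was done. Of 45101 probe sets 64 control sets were left out and 45037 tested with limma 3.58.1 in R 4.3.3 (lmFit, eBayes with intensity trend, two-sided, Benjamini-Hochberg over all). A gene was read from its probe set with the highest mean log2 value, among those with 1 symbol, which gave 18193 genes. Symbols came from the platform annotation, and 34741 of 34945 matched RefSeq genes (GRCm38.p6) by Entrez number. All members were named with all their probe sets. Of other lists, up to 3 called genes a direction with the smallest adjusted p were named, or, with none called, the 2 brightest. In the further red cell lists genes with an unadjusted p under 0.05 were also named, after their values were seen. Members and lists were chosen with earlier results of these data known. In simulated data for null against control with 45037 probe sets, 71% of 100 log2 changes of 1 and 2% of 100 of 0.5 were recovered, with 9 false calls, so changes under 2-fold could be missed. With 3 arrays a group an exact permutation test cannot go below p = 0.1, and none is given. Their number limits the precision. No 2 arrays held identical values.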

Additional observations from a re-analysis of the deposited data

Results flagged for a closer look

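In an interaction test of group and embryo sex (limma, adjusted over all 45037 probe sets) 5 of the 46 erythroid probe sets passed, against 4.75% of all probe sets. The test rests on 1 male null (Null_61) and 1 female control (Control_8), which are also the 2 arrays of the first number run. With these arrays the contrast equals the difference between second and first number run, summed over null and control livers, so it cannot show that the null effect differed between sexes, and sex, number run and single livers cannot be told apart. The contrast was -2.01 for Hbb-y 1436717_x_at (adjusted p = 0.0103) and -1.96 for Hbb-y 1436823_x_at (0.0136). Null minus control by number run was 2.43 in the first and 2.26 in the second for 1436717_x_at, and 2.51 and 2.19 for 1436823_x_at. The contrast was 2.07 for Epor 1423344_at (adjusted p = 0.00226), -1.63 for Zfpm1 1423603_at (0.0421) and -1.02 for Bpgm 1415864_at (0.0307). By number run null minus control was -0.81 and 0.79 for Epor, 0.25 and -0.44 for Zfpm1, and 0.14 and -0.55 for Bpgm.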

How the results depend on the processing

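The calls of 1436717_x_at and 1436823_x_at of Hbb-y kept their direction and stayed past the threshold in the 16 alternatives that tested them. The 803 recomputed values were of single erythroid probe sets or, in 1 alternative, of a gene's averaged probe sets, counted under its brightest. Among them 0 calls were lost or reversed, where only those Hbb-y calls could have been. Calls gained were 27, over 13 probe sets, and 69 values called in neither setting changed sign, over 21 probe sets. With quantile normalization 11 erythroid probe sets and 9 erythroid genes rose, 1176 of all probe sets and 615 of all genes rose, and the median log2 changes were 0.34 (regulators), 0.37 (membrane), 0.53 (globins), 0.16 (enzymes), 0.36 (other members), 0.36 (all members) and 0.38 (membrane and globin genes). With array weights 5 erythroid probe sets rose and 1 fell, 3 erythroid genes rose, and 1558 of all probe sets and 613 of all genes rose. With the number run as a block 6 erythroid probe sets and 4 genes rose, with 1865 of all probe sets and 747 of all genes. In the 4 arrays of the second number run 2 erythroid probe sets fell, 1 gene rose and 1143 of all probe sets rose. With embryo sex as a term 366 of all probe sets and 170 of all genes rose, and the regulators' median was 0.058. The globin median was 0.46 over probe sets above the median level and 0.62 where a gene's probe sets were averaged, where 1 erythroid gene rose. Without probe sets ending in _x_at, an alternative chosen after seeing the data, 0 rose. The causes were not tested. No other setting that kept all arrays moved these counts or medians by over 1.5 times (counts) or by over 1 SD of the array medians (medians).

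Leaving out 1 array at a time gave 2 to 5 erythroid probe sets higher and 0 to 3 lower, and 0 to 3 genes higher and 0 to 0 lower. Of all probe sets 211 to 1499 rose and 1534 to 3197 fell, lowest without Control_1192 and highest without Null_61, and of all genes 98 to 558 rose and 906 to 1689 fell. The medians ranged over 0.10 to 0.24 (all members), 0.046 to 0.20 (regulators), 0.13 to 0.30 (membrane), 0.24 to 0.40 (globins), -0.11 to 0.086 (enzymes), 0.09 to 0.23 (other members) and 0.16 to 0.34 (membrane and globin genes). No paired analysis was possible because no title number occurs in both groups. Low intensity limits Hbb-bh1 and the control values of the 2 called Hbb-y probe sets, which lie near or below the array medians.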
